A study of Mus musculus with 2 samples.

Results

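Natural killer cells of regenerating mouse muscle are described here. They are the barcodes that the deposited cell annotation calls NK cells, and they numbered 135 of 6879 annotated cells, 21 of 3494 at 2 days and 114 of 3385 at 7 days after injury. Natural killer cells are innate lymphocytes that carry no rearranged antigen receptor. They read target cells through paired activating and inhibitory receptors of the lectin-like Klr families, and they act by releasing granules of perforin and granzymes and by secreting interferon gamma and chemokines. In injured muscle they arrive with other leukocytes while myeloid cells clear dead fibres and stem cells rebuild them.

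The study dissociated tibialis anterior, a shin muscle, of C57BL/6J mice (C57Bl/6 in the labels) after injection of notexin, a snake venom phospholipase that kills muscle fibres, and sequenced the suspension as single cells with a 10x Genomics 3′ kit. There was 1 library per time point, each from 1 mouse per the cell annotation, and both mice were injured, so no uninjured muscle entered any comparison here. The labels give female mice aged 7 months for both libraries, whereas the cell annotation gives male mice aged 4 months at day 2 and 7 months at day 7. The NK cells held no count of Xist, the transcript of the silenced X chromosome, and 25 counts at day 2 and 108 at day 7 summed over Eif2s3y, Ddx3y, Kdm5d and Uty of the Y chromosome, which goes against the labelled sex. With 1 library per time point no test between groups can be made. Every interval below is an exact 95% interval that covers counting error alone, and day, mouse, age and library cannot be told apart.

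NK cells were shallow compared with many other cells of the muscle but similar in depth to T cells. At day 7 the 114 NK cells held 495094 counts of unique transcripts, with a median of 3954 per cell (1181 to 12294) and 1546 genes. The 330 T cells of that library held 1673090 counts, with a median of 3363 per cell (1021 to 55637). At day 2 the 21 NK cells held 90518 counts, with a median of 3414 (1432 to 23215). Barcodes were matched within each library. The 2 libraries shared 1 barcode among all annotated cells and none among NK cells.

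The annotated NK cells held counts of their markers, which the annotation may itself have used. Those markers were Ncr1, which encodes the activating receptor NKp46, Klrb1c, which encodes NK1.1, the granule protease gene Gzma and the granule membrane gene Nkg7. Each of the 114 NK cells of day 7 held at least 1 count of them, from 1 to 267 with a median of 16, and at day 2 the counts ran from 3 to 44 with a median of 15. At least 3 counts of Ncr1, Klrb1c and Gzma together were found in 92 of 114 NK cells (80.7%, exact binomial interval 72.3 to 87.5), in 7 of 330 T cells (2.12%, 0.857 to 4.32) and in 1 of 813 fibro-adipogenic progenitors (0.123%, 0.00311 to 0.683), a stromal cell that should lack them and whose median depth of 8400 counts was higher. With every cell thinned to 2000 counts the shares were 65.3% of 101 NK cells and 0.806% of 248 T cells, with 13 NK and 82 T cells too shallow to enter. Nkg7 was less selective, with a count in 95.6% of NK cells and 56.4% of T cells. Conversely, at least 3 counts of the T cell receptor genes Cd3d, Cd3e and Cd3g were present in 1 of 114 NK cells and in 223 of 330 T cells. The genes of the T cell receptor constant chains were not among the 27998 genes of the tables. The annotation was made by clustering cells on their expression, so the levels of these and all other genes in NK against T cells are given as a description of the 2 annotated classes.

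NK cells made up 0.601% (0.372 to 0.917) of annotated cells at day 2 and 3.37% (2.79 to 4.03) at day 7. Among the annotated immune cells alone their share was 0.820% (0.508 to 1.25) and 8.20% (6.81 to 9.77). T cells made up 1.49% (1.11 to 1.95) and 9.75% (8.77 to 10.8) of annotated cells. The share of NK cells among NK and T cells was 28.8% (18.8 to 40.6) at day 2. At day 7 it was 25.7% (21.7 to 30), and the intervals overlap. Of the 52 T cell barcodes of day 2, 17 held at least 3 counts of basophil markers and 26 held a count of Cd3d, Cd3e or Cd3g. Without those 17 the share at day 2 was 37.5% (24.9 to 51.5), and T cells were 35 of 3494 annotated cells. These shares count cells that survived dissociation and filtering in 1 mouse each. The limits on cells stated in the methods of the study, which ask for 750 genes and 1000 transcripts or more and allow 30% mitochondrial transcripts, would keep all 21 NK cells of day 2, 111 of 114 NK cells and 293 of 330 T cells of day 7.

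**Figure D1:**
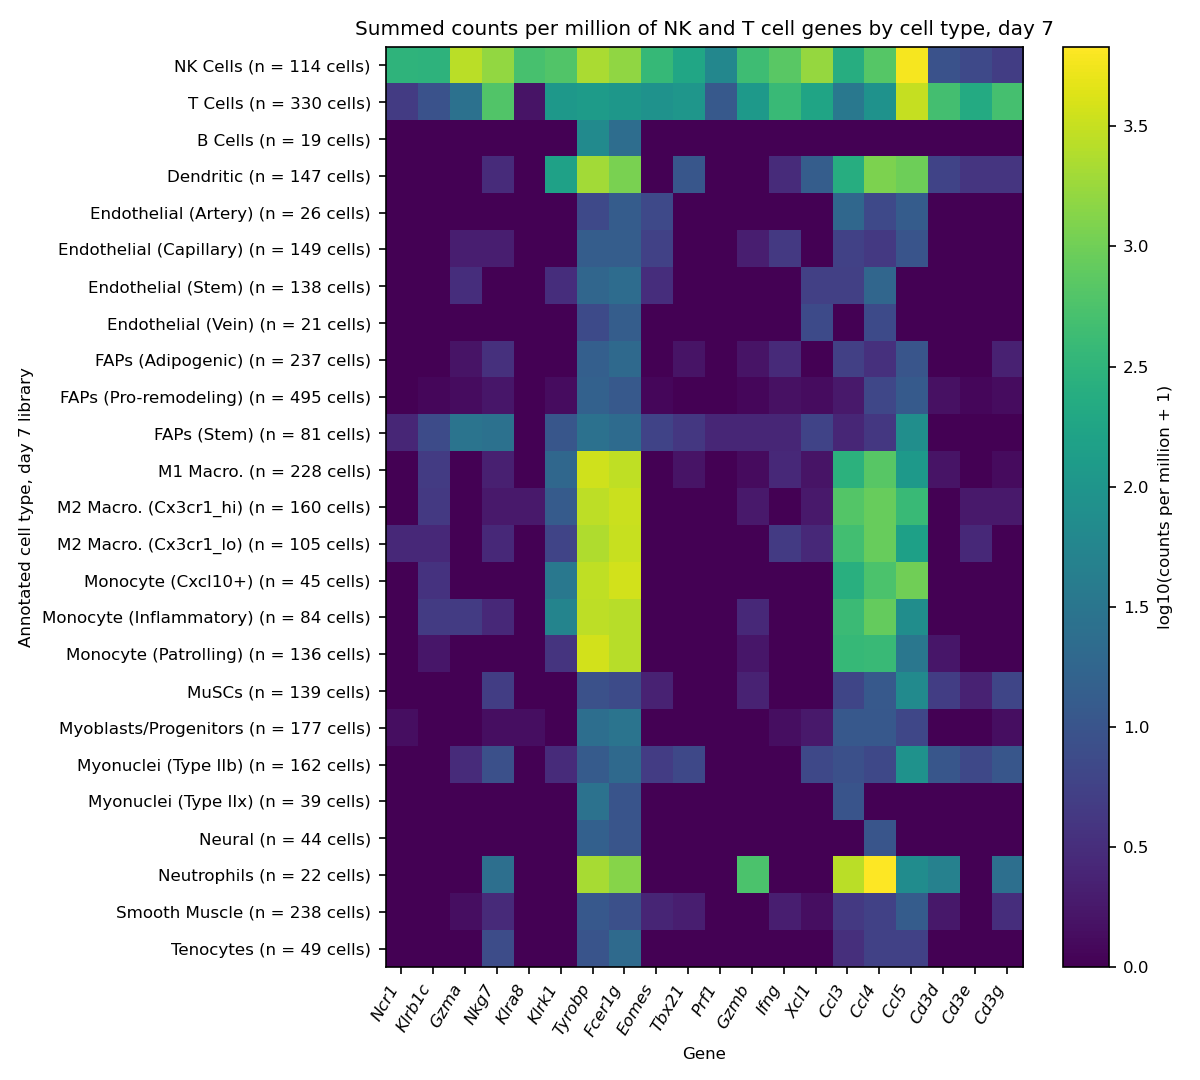
Heat map of the day 7 library, with 20 genes on the x axis, the annotated cell types with at least 19 cells on the y axis and colour for log10 of CPM (summed counts per 1000000) plus 1. Ncr1, Klrb1c, Gzma and Klra8 are brightest in the 114 NK cells (Gzma stands at 2735 CPM there and at 25.7 CPM in T cells), Tyrobp and Fcer1g are shared with the monocyte and macrophage classes, and Cd3d, Cd3e and Cd3g mark the 330 T cells.

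The promoters of the 4 marker genes are shown because all 4 hold TGTGGT, the core letters read by RUNX factors, on one strand or the other. Below are the 200 bases before the RefSeq transcription start (GRCm38.p6), 5′ to 3′ on the strand of the gene, with TGTGGT or its reverse complement ACCACA in capitals. They are the windows chr7:4337515-4337714 (+ strand) for Ncr1, chr6:128788642-128788841 (- strand) for Klrb1c, chr13:113100982-113101181 (- strand) for Gzma and chr7:43436938-43437137 (+ strand) for Nkg7. RefSeq starts can differ from the annotation that gave the gene coordinates. The window of Klrb1c lies inside its span there (chr6:128778485-128789215), and that of Nkg7 reaches into its span (chr7:43437073-43438249).
Ncr1: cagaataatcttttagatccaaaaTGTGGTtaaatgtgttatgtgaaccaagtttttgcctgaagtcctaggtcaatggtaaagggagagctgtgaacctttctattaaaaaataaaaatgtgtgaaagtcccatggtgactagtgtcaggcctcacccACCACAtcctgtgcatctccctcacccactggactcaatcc
Klrb1c: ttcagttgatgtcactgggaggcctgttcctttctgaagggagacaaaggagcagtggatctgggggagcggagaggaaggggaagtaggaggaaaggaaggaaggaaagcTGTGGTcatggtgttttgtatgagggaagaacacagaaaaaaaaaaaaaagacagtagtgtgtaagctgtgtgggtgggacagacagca
Gzma: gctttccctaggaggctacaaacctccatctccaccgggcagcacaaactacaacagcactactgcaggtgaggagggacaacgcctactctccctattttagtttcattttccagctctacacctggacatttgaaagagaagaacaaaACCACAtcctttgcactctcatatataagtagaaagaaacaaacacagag
Nkg7: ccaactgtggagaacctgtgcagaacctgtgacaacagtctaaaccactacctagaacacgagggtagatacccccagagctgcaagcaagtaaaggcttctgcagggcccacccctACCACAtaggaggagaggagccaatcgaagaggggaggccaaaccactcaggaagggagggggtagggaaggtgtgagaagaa

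Ncr1 held 2 matches, which began 176 and 41 bases before the start. Klrb1c, Gzma and Nkg7 held 1 match each, at 89, 50 and 83 bases. In windows from 250 bases before to 50 bases after the start, TGTGGT on either strand was present in 18.9% of 27025 genes, in 13 of 18 matched cytotoxic granule and death ligand genes, in 7 of 12 matched activating receptor and adaptor genes and in 4 of 10 matched genes among the 12 highest in NK cells. Gzma and Nkg7 belong to the granule list, and Ncr1 and Klrb1c to the activating list. Gzma, Ncr1 and Klrb1c are also among the 12 highest, so these counts include the promoters shown above. Of 9 letter strings searched, the T-box core GTGTGA was present in 16.4% of all genes and 5 of the 18 granule genes, and the ETS core GGAAGT in 26.5% and 10 of 18. The longer ETS letters CAGGAAGT were present in 3.86% and 6 of 18, the T-box letters GGTGTGA in 4.6% and 4 of 18, and the letters AGGTGT in 15.7% and 6 of 18. STAT letters were present in 9.55% and 4 of 18. In the granule list several strings thus stood above their share of all genes, not TGTGGT alone. Among the 12 matched activating receptor and adaptor genes GGAAGT was present in 3, GTGTGA in 4, and GGTGTGA and the STAT letters in none. Among 9 matched inhibitory receptor genes TGTGGT was present in 4 and GGAAGT in 1. Of the 4 genes of the T cell receptor complex none held TGTGGT, 3 held GGAAGT and 3 held AGGTGT. Besides TGTGGT, the strings were the T-box letters AGGTGTGA with its inner parts GGTGTGA and also GTGTGA as well as AGGTGT, which overlap one another, a longer T-box element, the ETS letters CAGGAAGT and GGAAGT, the shorter of which lies within the longer, and the STAT letters TTCNNNGAA, each on both strands. They were chosen after the expression values were known. Matches are of letters alone, and binding was not measured.

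At day 7 the genes that set NK cells most apart from T cells were receptors of one gene complex. Levels below are CPM, counts per 1000000 of the summed counts of a class, and ratios are log2 of NK over T levels. Among 4609 genes with at least 50 counts in NK or T cells and found in at least 10% of the cells of that class, 133 (2.89%) were at least 2-fold higher in NK cells and 569 (12.3%) at least 2-fold lower, around a median log2 ratio of -0.16. With no minimum of counts these shares were 9.09% and 10.9% of 14716 genes. Ranked with counts below 3 taken as 3, the 12 highest were Klra4, Klra8, Klri2, Gzma, Ncr1, Klrb1b, Klra9, Klrb1c, Klra3, Car2, Klra7 and Klre1. Of these, 9 lie in 1.56 megabases of chromosome 6 (chr6:128778485-130337574, GRCm38), the natural killer gene complex, which encodes lectin-like receptors. In that stretch, whose ends were set by those 9 genes, 15 genes passed the filter on counts, of which 12 were at least 2-fold higher in NK cells, none was at least 2-fold lower and the median log2 ratio was 4.81. The other 3 genes were Clec2d, which encodes a ligand of a Klrb1 receptor (0.28), the lymphocyte activation gene Cd69 (-0.52) and the autophagy gene Gabarapl1 (0.23). The ranked genes outside the complex were Ncr1 on chromosome 7, Gzma on chromosome 13 and Car2, a carbonic anhydrase gene on chromosome 3, which stood at 380 CPM (327 to 438) in NK cells and 13.1 CPM (8.24 to 19.9) in T cells.

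Of 16 listed activating receptor and adaptor genes, 13 were at least 2-fold higher in NK cells, none was at least 2-fold lower and the median log2 ratio was 3.24. Beside these stand 2.89% higher and 12.3% lower over all genes. Ncr1 (chr7:4337724-4345164) stood at 313 CPM (266 to 366) in NK cells and 3.59 CPM (1.32 to 7.81) in T cells, a log2 ratio of 6.45 (5.29 to 7.92). Klrb1c (chr6:128778485-128789215) stood at 299 CPM (253 to 351) against 8.37 CPM (4.57 to 14). Between them, the 114 NK cells held 94.5% of all Ncr1 counts and 78.7% of all Klrb1c counts of the annotated cells of day 7.

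The activating Ly49 receptor genes Klra4 (Ly49D) and Klra8 (Ly49H) were nearly absent from T cells. Klra4 stood at 588 CPM (522 to 659) in NK cells, with 3 counts in all T cells, a log2 ratio of 8.36 (6.80 to 10.64). Klra8 stood at 527 CPM (465 to 595), with 1 count in all T cells, a log2 ratio of 9.78 (7.29 to 15.09). The Klra genes are close copies of one another, so how reads were divided among them, and whether reads that match several copies were lost, is uncertain. Klrk1, which encodes NKG2D, was shared more widely, with 622 CPM (555 to 696) in NK cells, 110 CPM (94.7 to 127) in T cells and 153 CPM in dendritic cells.

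The adaptors that carry the signal of these receptors were high in NK cells but not limited to them. Tyrobp, which encodes DAP12, the partner of the activating Ly49 receptors, stood at 2175 CPM (2047 to 2309) against 126 CPM (109 to 144) in T cells, and reached 3725 CPM in patrolling monocytes. Fcer1g, the adaptor of NKp46 and Fc receptors, stood at 1541 CPM (1434 to 1654) against 104 CPM (89.1 to 121). Hcst, which encodes DAP10, the partner of NKG2D, differed less, at 535 CPM (473 to 604) against 379 CPM (350 to 410). Its log2 ratio of 0.50 turned to -0.05 by the mean over cells and -0.09 after thinning to 2000 counts. It was -0.10 without cells that held cell cycle counts and -0.02 against T cells with a Cd8 and no Cd4 count. The 3 listed genes under 2-fold were Hcst, Crtam (44.4 against 31.7 CPM) and Cd226 (36.4 against 58.6 CPM).

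Inhibitory receptors followed. Of 9 listed genes with at least 10 counts, 7 were at least 2-fold higher in NK cells and none was at least 2-fold lower. Their median log2 ratio was 3.39, and over all genes 2.89% were higher and 12.3% lower. Klra7 (Ly49G) stood at 471 CPM (412 to 535) in NK cells and 16.7 CPM (11.1 to 24.2) in T cells. Klrd1, which encodes CD94, stood at 660 CPM (591 to 736) against 74.1 CPM (61.6 to 88.4), and its inhibitory partner Klrc1, which encodes NKG2A, at 90.9 CPM (66.3 to 122) against 16.1 CPM (10.6 to 23.5). Klrg1, a receptor gained by mature NK and effector T cells, did not separate the classes, at 36.4 CPM (21.5 to 57.5) and 42.4 CPM (33.1 to 53.5). Tigit held 2 counts in NK and 4 in T cells, too few to compare.

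Among granule genes, the one that encodes granzyme A had the highest ratio. Gzma (chr13:113093825-113100981) stood at 2735 CPM (2591 to 2884) in NK cells and 25.7 CPM (18.6 to 34.6) in T cells, a log2 ratio of 6.73 (6.30 to 7.21). Gzmb, which encodes the apoptosis-inducing granzyme B, stood at 444 CPM (388 to 507) against 118 CPM (102 to 135), and Prf1, the gene of the pore former perforin, at 58.6 CPM (39.2 to 84.1) against 10.8 CPM (6.38 to 17). Gzmk, a granzyme gene of memory-type T cells, was the reverse, at 8.08 CPM (2.20 to 20.7) against 78.9 CPM (66.0 to 93.6).

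Of 16 listed granule and death ligand genes with at least 10 counts, 9 were at least 2-fold higher and 1, Gzmk, at least 2-fold lower. The median log2 ratio was 1.62, and over all genes 2.89% were higher and 12.3% lower. The higher ones of the list included the granzyme inhibitor genes Serpinb9 (248 against 43.6 CPM) and Serpinb6b (358 against 39.4 CPM), the granule protease gene Ctsw (600 against 148 CPM) and the death ligand gene Fasl (88.9 against 24.5 CPM). Srgn, the proteoglycan on which granules are packed, stood at 1206 CPM (1111 to 1307) against 947 CPM (901 to 995). Its log2 ratio of 0.35 turned to -0.02 by the mean over cells and -0.08 without cells that held cell cycle counts. Gzmd and Gzme held no count in either class, and Gzmf held none in NK cells and 1 in T cells.

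**Figure D2:**
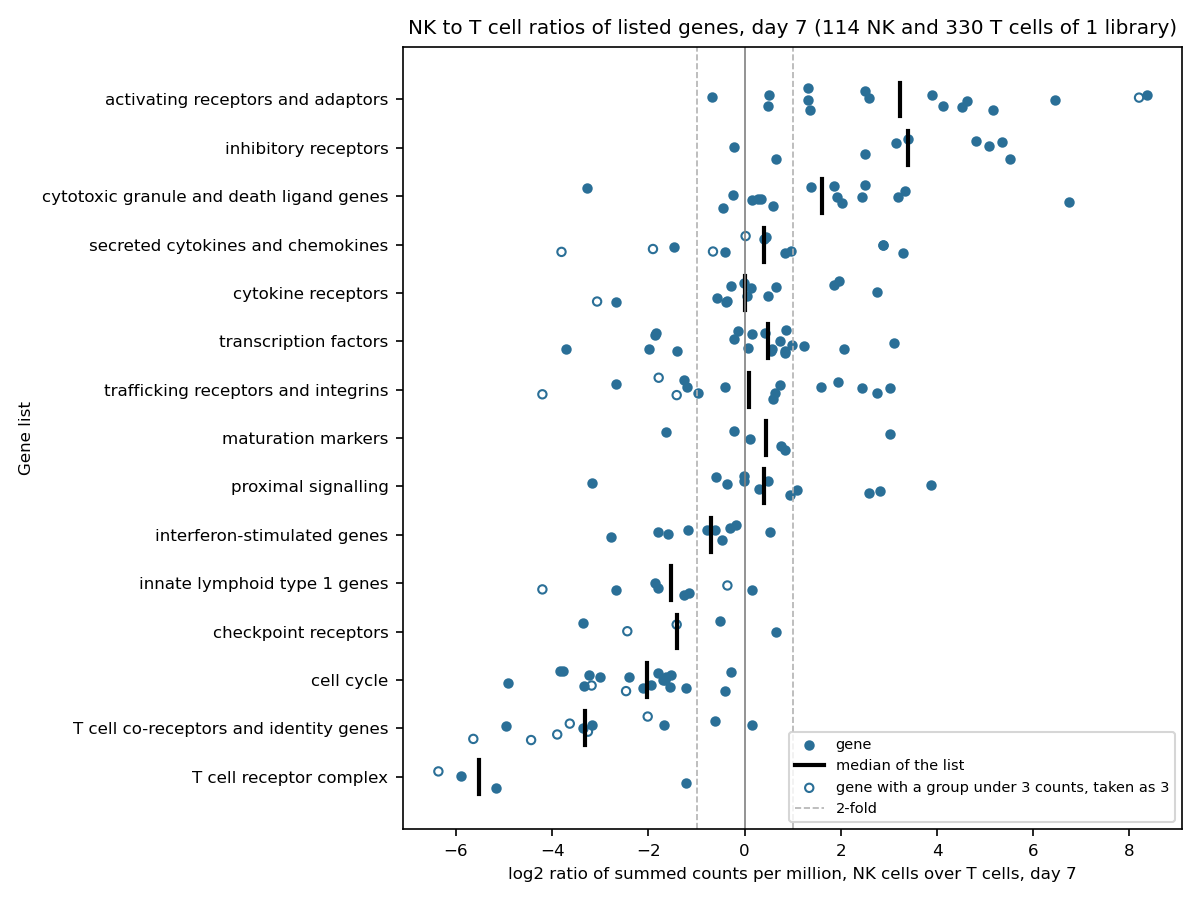
Log2 ratio of CPM in the 114 NK cells over the 330 T cells of day 7 (x axis), with 1 point per gene of each list (y axis), a black bar for the median of the list, a grey line at equality and dashed lines at 2-fold. Open points are genes with under 3 counts in a class, taken as 3. Medians run from 3.39 for inhibitory receptors down to -5.53 for the T cell receptor complex.

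Of the secreted products, Xcl1, Ccl3 and Ccl4 were at least 2-fold higher in NK cells. Xcl1, the chemokine gene for cross-presenting dendritic cells, stood at 1691 CPM (1578 to 1809) in NK cells and 173 CPM (154 to 194) in T cells, a log2 ratio of 3.29 (3.09 to 3.48). Ccl3 stood at 244 CPM (203 to 292) against 33.5 CPM (25.3 to 43.5) and Ccl4 at 660 CPM (591 to 736) against 89.7 CPM (75.9 to 105). Both encode inflammatory chemokines, and the 22 neutrophils of the library held more of them, 2736 CPM of Ccl3 and 6769 CPM of Ccl4. Ifng, the gene of interferon gamma, stood at 707 CPM (635 to 785) against 396 CPM (367 to 428), a log2 ratio of 0.84 (0.64 to 1.02), and Ccl5 at 5956 CPM (5743 to 6175) against 3071 CPM (2988 to 3156). The log2 ratio of Ccl5 was 0.96 (0.89 to 1.02). It turned to -0.17 with T cells carrying a Cd8 and no Cd4 count as the comparison.

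T cells, which outnumbered NK cells, held more Ifng in total, 663 counts against 350. Of 13 listed secreted genes, 3 were at least 2-fold higher in NK cells, 3 at least 2-fold lower and 7 between. That compares with 2.89% higher and 12.3% lower over all genes, and the median log2 ratio of the 13 was 0.40. Lower in NK cells were Tnf (26.3 CPM, 14 to 44.9, against 72.9 CPM, 60.6 to 87.1), Il10 (1 count against 38) and the repair cytokine gene Areg (2 counts against 142).

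Receptors for cytokines differed by cytokine. Il2rb, the chain shared by receptors for IL-2 and IL-15, stood at 450 CPM (393 to 514) in NK cells and 124 CPM (108 to 142) in T cells. Il18rap stood at 196 CPM (159 to 239) against 50.2 CPM (40.0 to 62.2), and Il12rb2 at 28.3 CPM (15.5 to 47.4) against 4.18 CPM (1.68 to 8.62). Il2ra, the high-affinity IL-2 chain, had no count in NK cells and 85 in T cells, at least 8.38-fold lower with 3 counts taken as the floor of the NK sum. Il7r stood at 22.2 CPM (11.1 to 39.8) against 142 CPM (124 to 161). The other 9 of 14 listed genes lay within 2-fold, among them the shared chain gene Il2rg (182 and 185 CPM), and the median log2 ratio was 0.02. Of the 14, 3 were at least 2-fold higher and 2 at least 2-fold lower, beside 2.89% and 12.3% over all genes.

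Of 20 listed transcription factor genes with at least 10 counts, 3 were at least 2-fold higher in NK cells, 5 at least 2-fold lower and 12 between, with a median log2 ratio of 0.49, beside 2.89% higher and 12.3% lower over all genes. Eomes, a T-box factor that distinguishes conventional NK cells from other innate lymphocytes, stood at 368 CPM (316 to 425) against 87.9 CPM (74.2 to 103). Its relative Tbx21 (T-bet) differed less, at 186 CPM (150 to 228) against 103 CPM (88.6 to 120). Irf8 stood at 780 CPM (704 to 861) against 90.3 CPM (76.4 to 106), and Stat4, which relays IL-12, at 137 CPM (107 to 174) against 58.0 CPM (47.0 to 70.7). Lower were Bcl11b, which holds T cell identity (18.2 CPM, 8.31 to 34.5, against 238 CPM, 215 to 262), and Rora, Ikzf2, Tox and Id3. Gata3 (170 and 154 CPM) and Ets1 (448 and 429 CPM) had overlapping intervals.

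Genes that mark tissue-resident type 1 innate lymphocytes were mostly lower in NK than in T cells. Of 8 listed, 6 were at least 2-fold lower and none was at least 2-fold higher, with a median log2 ratio of -1.53, beside 12.3% lower over all genes. Cxcr6 held 2 counts in NK cells and 187 in T cells, and Itga1, which encodes CD49a, 10 and 81. Itga2, which encodes CD49b and marks conventional NK cells, held 18 counts in NK cells and 9 in T cells, a log2 ratio of 2.76 (1.53 to 4.09). T cells held genes of the type 1 list themselves, such as Rora at 241 CPM and Il7r at 142 CPM. A level below that of T cells therefore does not tell conventional NK cells from type 1 innate lymphocytes. Without cells that held endothelial or macrophage counts the ratio of Itga1 turned to 0.86, and with T cells carrying a Cd8 and no Cd4 count as the comparison Tmem176a and Tmem176b turned to 1.73 and 2.98, so the direction of these 3 genes depends on the cells compared.

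Among 16 trafficking genes with at least 10 counts, 5 were at least 2-fold higher and 6 at least 2-fold lower in NK cells, with a median log2 ratio of 0.09, beside 2.89% higher and 12.3% lower over all genes. The higher ones included Itgam, which encodes CD11b (72.7 CPM, 50.9 to 101, against 8.97 CPM, 5.02 to 14.8), and the chemokine receptor gene Ccr2 (309 CPM, 262 to 362, against 80.7 CPM, 67.7 to 95.5). S1pr1, which directs exit from tissue, was lower (18.2 CPM, 8.31 to 34.5, against 117 CPM, 101 to 134), as was Cxcr3 (44.4 against 102 CPM). The NK exit receptor gene S1pr5 held 5 counts and Cx3cr1 3 counts in all NK cells.

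The 12 lowest genes in the ranking held T cell genes and others. They were Cd3g, Cd3d, Cd8b1, Cd3e, Cd8a, 2810417H13Rik, Plxnd1, Tnfrsf4, Cd5, Cxcr6, Col4a2 and Ifi27l2a, and among them the co-stimulator gene Tnfrsf4, which encodes OX40, held 1 count in NK cells and 222 in T cells. The listed cell cycle gene 2810417H13Rik (6.06 against 182 CPM) had a log2 ratio of -4.91, and -1.47 without cells that held cell cycle counts. The guidance receptor gene Plxnd1 (4.04 against 141 CPM) was higher in stem-like endothelial cells, at 485 CPM, and its log2 ratio of -5.13 was -1.36 without cells that held endothelial or macrophage counts. All 4 listed receptor complex genes were at least 2-fold lower, with a median log2 ratio of -5.53, and Cd247, the zeta chain gene that NK receptors also use, was the least so, at 74.7 CPM (52.6 to 103) against 174 CPM (155 to 195). Of 12 co-receptor and identity genes 10 were at least 2-fold lower, with a median log2 ratio of -3.31, beside 12.3% lower over all genes. Cd8b1 (506 counts in T cells) and Cd5 (220 counts) had no count in NK cells, at least 49.9-fold and 21.7-fold lower on the same floor of 3 counts. The adhesion gene Cd2 (283 and 255 CPM) and the co-stimulator gene Cd28 (174 and 268 CPM) lay within 2-fold. Of 12 genes that signal just below the receptors, 4 were at least 2-fold higher, 1 at least 2-fold lower and 7 between. Beside this stand 2.89% higher and 12.3% lower over all genes, and the median log2 ratio of the 12 was 0.39. Lck (204 and 206 CPM) and Zap70 (92.9 and 93.2 CPM) had intervals that overlap, Lat was lower (36.4 against 326 CPM), and Txk (313 against 44.8 CPM), Syk (60.6 against 10.2 CPM) and Plcg2 (52.5 against 3.59 CPM) were higher.

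Of the checkpoint receptors, 3 of 5 with at least 10 counts were at least 2-fold lower in NK cells, with a median log2 ratio of -1.41, beside 12.3% lower over all genes. One of the 3, Havcr2 (-1.41), turned to 0.56 after thinning to 2000 counts. Pdcd1 had no count (55 in T cells), and Ctla4 stood at 16.2 CPM (6.98 to 31.8) against 167 CPM (148 to 188). Lag3 (10.1 and 14.3 CPM, 24.2 CPM in free RNA) and Cd96 (54.5 CPM, 35.9 to 79.3, and 34.7 CPM, 26.3 to 44.8) lay within 2-fold. Of 10 interferon-stimulated genes 4 were at least 2-fold lower in NK cells and none at least 2-fold higher, with a median log2 ratio of -0.70, beside 12.3% lower and 2.89% higher over all genes. Ly6a stood at 70.7 CPM (49.2 to 98.3) against 486 CPM (453 to 521) and Ifit1 at 28.3 CPM (15.5 to 47.4) against 99.2 CPM (84.7 to 116). Irf7 stood at 200 CPM (163 to 243) against 138 CPM (121 to 157), at 209 CPM in free RNA, and at 151 CPM in NK cells without the 5 barcodes with macrophage counts.

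NK cells held fewer proliferation transcripts than T cells. Of 20 cell cycle genes 18 were at least 2-fold lower and none at least 2-fold higher, with a median log2 ratio of -2.03, against 12.3% lower over all genes. At least 3 counts of Mki67, Top2a, Birc5, Ube2c and Cdk1 together were found in 5 of 114 NK cells (4.39%, 1.44 to 9.94) and 47 of 330 T cells (14.2%, 10.7 to 18.5). After thinning to 2000 counts the shares were 4.95% (1.63 to 11.2) of 101 NK cells and 9.68% (6.30 to 14.1) of 248 T cells, whose intervals overlap. At a minimum of 1 count the thinned shares were 12.9% (7.04 to 21) of NK cells and 27.8% (22.3 to 33.8) of T cells, whose intervals do not. The proliferation genes Pcna (80.8 and 98.6 CPM) and H2afz (1048 and 1399 CPM) differed by less than 2-fold.

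Some genes low in NK cells moved with other cell types among the T cell barcodes. The endothelial genes Cdh5 and Kdr gave at least 3 counts in 21 of 330 T cells and 1 of 114 NK cells, and all 4 endothelial markers were at least 2-fold lower in NK cells, with a summed level of 362 CPM against 3386 CPM. Col4a2, a basement membrane collagen gene ranked among the 12 lowest in NK cells (18.2 against 331 CPM), turned to a log2 ratio of 0.55 without cells that held endothelial or macrophage counts. Among named genes with a ratio of at least 2-fold, Itga1 (0.86) and Cxcl12 (1.13) also changed direction without them. The part of these barcodes in low genes that are not named was not tested gene by gene. Without them 320 of 3559 genes (8.99%) were at least 2-fold lower in NK cells, against 569 of 4609 (12.3%). The 7 macrophage markers were summed to 1032 CPM in NK and 1001 CPM in T cells, and stood at 5691 CPM in the free RNA read from barcodes with 1 to 100 counts. Of their 511 counts in NK cells, all but 81 (175 CPM) lay in 5 barcodes that held at least 3 counts of C1q genes and Csf1r, which are themselves among these markers.

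NK cells of day 7 were not uniform. Klra4 was found in 43 of 114 cells and was at 0 in 71, and the 10% of cells with most of it held 56.7% of its counts. Klra8 was found in 58 cells and Klra7 in 69. Of the 6 Klra genes listed (Klra1, Klra3, Klra4, Klra7, Klra8 and Klra9), 24 cells held none, 16 held 1, 21 held 2, 35 held 3, 15 held 4 and 3 held 5. Klra4 and Klra8 were seen together in 30 cells, Klra8 alone in 28, Klra4 alone in 13 and neither in 43. In cells thinned to 2000 counts the variance over the mean was 3.18 for Klra4 and 3.03 for Klra8, against 0.955 for Ncr1 and 1.03 for Klrk1, where counting alone gives a value near 1. At this depth a gene at 0 in a cell may still be expressed there.

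**Figure D3:**
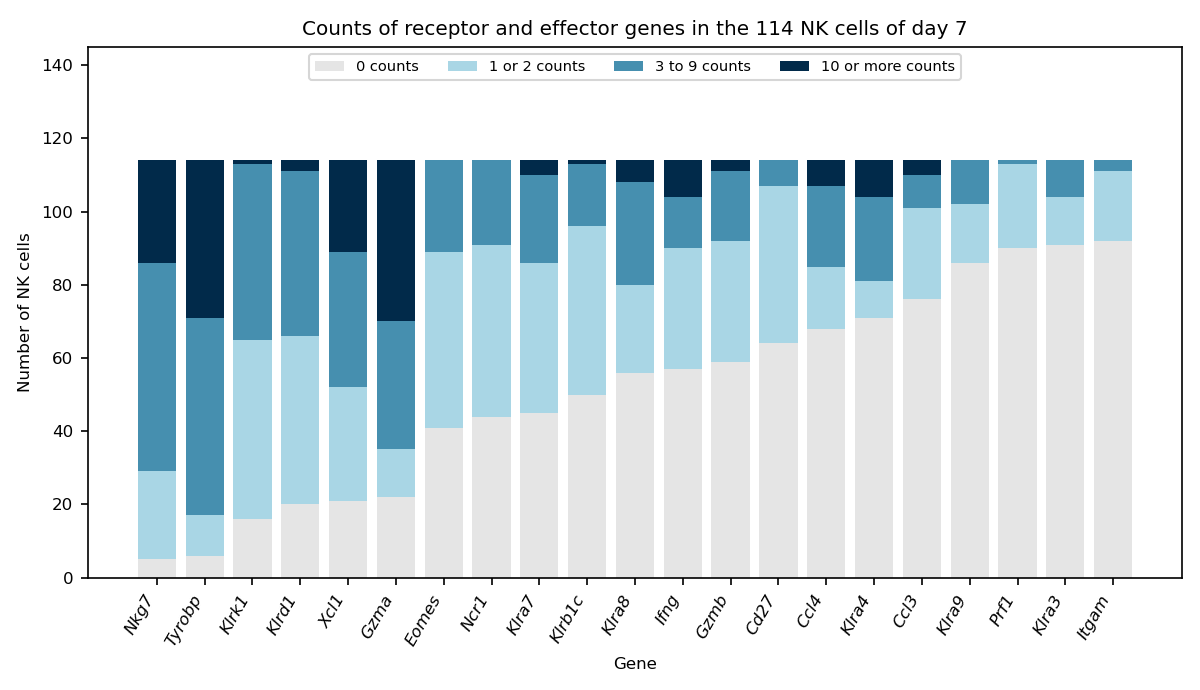
Number of NK cells of day 7 (y axis, 114 in all) by their counts of 21 receptor and effector genes (x axis, ordered by the number of cells at 0), with stacked colours for 0, 1 or 2, 3 to 9 and 10 or more counts. Nkg7 is at 0 in 5 cells, Gzma reaches 10 or more counts in 44 cells and is at 0 in 22, and Klra4 is at 0 in 71 cells.

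Effector genes were uneven too. Gzma ran from 0 counts in 22 cells to 230 in 1 cell, with 44 cells at 10 or more, and its variance over the mean after thinning was 8.89. Ifng was at 0 in 57 cells and at 10 or more in 10, and the 10% of cells with most of it held 66.6% of its counts. Xcl1 was at 0 in 21 cells, and the 10% of cells with most of it held 50.3% of its counts. At a minimum of 3 counts, 16 cells held both Ifng and Ccl3 or Ccl4, 8 held Ifng alone, 23 held Ccl3 or Ccl4 alone and 67 held neither. Gzma and Ifng were combined in 13 cells at that minimum, with Gzma alone in 66 and Ifng alone in 11. Cells with more counts in all are likelier to pass both minima, which these numbers do not correct for.

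Of 6 maturation markers with at least 10 counts 1 was at least 2-fold higher and 1 at least 2-fold lower than in T cells, with a median log2 ratio of 0.44. The shares over all genes were 2.89% higher and 12.3% lower, and so few markers are not read as a difference from them. Maturation of mouse NK cells is read from CD27, lost late, and CD11b, gained late. At a minimum of 1 count Cd27 and Itgam were found together in 13 cells, Cd27 alone in 37, Itgam alone in 9 and neither in 55. Over all NK cells Cd27 stood at 164 CPM (130 to 203) and Itgam at 72.7 CPM (50.9 to 101).

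The surroundings held ligands for some of these receptors. Of 18 listed ligand genes with at least 10 counts, 1 was at least 2-fold higher in NK than in T cells and 4 at least 2-fold lower, with a median log2 ratio of -0.17, beside 2.89% and 12.3% over all genes (9.09% and 10.9% with no minimum of counts). So few genes are not read as a difference from those shares. Of the lower ones, Pvrl2, Cxcl9 and Cxcl12 changed direction under an alternative given below. Ligands of NKG2D, which stressed cells display, were rare in all 3385 annotated cells of day 7, with 11 counts of Raet1d, 3 of Raet1e, 3 of H60b, none of H60c and 24 of Ulbp1, of 27911198 counts. Of the class I genes read by Ly49 receptors, H2-K1 stood at 3783 CPM and H2-D1 at 3044 CPM in NK cells themselves. H2-T23, which encodes Qa-1, the ligand of CD94 and NKG2A, was highest in Cxcl10+ monocytes at 878 CPM and stood at 326 CPM over all annotated cells of day 7 and 123 CPM over those of day 2.

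Of the cytokines that drive NK cells, Il12b was nearly limited to dendritic cells, with 48 of 58 annotated counts (46.1 CPM), and had no count at day 2 in 34512656 annotated counts. Il15 stood at 96.0 CPM in the 22 neutrophils, on 4 counts, at 85.5 CPM in Cxcl10+ monocytes and at 18.3 CPM over all annotated cells, against 6.84 CPM at day 2. Il18 reached 55.1 CPM in stem-like fibro-adipogenic progenitors. The CXCR3 ligand gene Cxcl9 was highest in pro-remodeling fibro-adipogenic progenitors at 394 CPM and Cxcl10 in tenocytes at 1029 CPM, and over all annotated cells Cxcl9 stood at 8.66 CPM at day 2 and 137 CPM at day 7. Cxcl16, whose receptor gene Cxcr6 held 2 counts in NK cells, was highest in Cx3cr1-high macrophages at 874 CPM. Classes of at least 19 cells were compared, and values of the smallest rest on few counts.

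Between the 2 days, Gzma, Klra4, Klra8 and the T-box factor genes had overlapping intervals, while Ncr1, Klrb1c, Klra7, Xcl1, Ifng and Klf2 were higher at day 7. A single NK barcode of day 2 bears on this comparison: it held 23215 of the 90518 counts, 348 counts of macrophage markers and 465 of the 466 counts of Ccl2 beside 23 counts of NK markers. Values are therefore given with all NK cells and again without the NK cells that held at least 3 counts of C1q genes and Csf1r, which left 20 cells of day 2 and 109 of day 7. Of 1383 genes that passed the filter on counts in NK cells, 157 (11.4%) were at least 2-fold higher at day 7 and 74 (5.35%) at least 2-fold lower, with a median log2 ratio of 0.05. Of 139 listed genes with at least 10 counts, 22 were at least 2-fold higher at day 7 and 11 at least 2-fold lower, and without the barcodes with macrophage counts 13 were higher and 19 lower. In that version 149 of 1281 genes (11.6%) were higher and 77 (6.01%) lower over all genes that passed the filter. The days also differed in the quality of the NK cells, with a median mitochondrial share of 9.76% at day 2 and 4.84% at day 7. Limits of 1000 genes, 2000 transcripts and 10% mitochondrial transcripts kept 14 of 21 and 96 of 114 NK cells. Under them the log2 ratios of day 7 over day 2 were 1.99 for Xcl1, 1.7 for Ifng and 2.48 for Ncr1, and that of Serpinb9 was -0.54.

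Gzma stood at 2541 CPM (20 of 21 cells) on day 2 and 2735 CPM on day 7, a log2 ratio of 0.11 (-0.10 to 0.31), and -0.12 (-0.33 to 0.10) without the barcodes with macrophage counts. Klra4 (574 and 588 CPM), Klra8 (464 and 527 CPM), Eomes (376 and 368 CPM) and Tbx21 (199 and 186 CPM) also had intervals of the ratio that included equality in both versions. With median-of-ratios scaling, which raised every one of these ratios by 0.31, Gzma had a log2 ratio of 0.42 (0.22 to 0.63) and Klra8 of 0.50 (0.02 to 1), whose intervals exclude equality, while those of Klra4, Eomes and Tbx21 still included it. An interval that includes equality does not show that levels were the same, and that of Tbx21 ran from -0.84 to 0.72.

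Higher at day 7 were Xcl1, Ifng and Ncr1. Xcl1 stood at 442 CPM at day 2 and 1691 CPM at day 7, a log2 ratio of 1.94 (1.48 to 2.43), and 1.54 (1.08 to 2.04) without the barcodes with macrophage counts. Ifng stood at 265 and 707 CPM, a log2 ratio of 1.41 (0.82 to 2.08), and 1.03 (0.44 to 1.70) without them. Ncr1 held 6 counts in 6 of 21 cells at day 2 and 155 counts in 70 of 114 cells at day 7, a log2 ratio of 2.24 (1.08 to 3.71), and 1.88 (0.72 to 3.35) without them. Receptor genes did not move alike. Klra7 stood at 188 and 471 CPM, a log2 ratio of 1.33 (0.62 to 2.13), and 0.98 (0.27 to 1.78) without the barcodes with macrophage counts. Klrb1c stood at 133 and 299 CPM, a log2 ratio of 1.17 (0.33 to 2.16), and 0.90 (0.02 to 1.94) without them. Those of Klre1 (0.71, 0.14 to 1.33) and Klrd1 (0.81, 0.30 to 1.37) had intervals that included equality without them, at 0.37 and 0.41. The regulator genes Klf2 (2.77, 1.87 to 3.84, and 2.56 without them), Id2 (1.19, 0.63 to 1.80, and 1.13) and the interferon-stimulated gene Isg15 (1.62, 0.45 to 3.10, and 1.54) were higher as well. In free RNA, Klf2 stood at 122 and 259 CPM and Isg15 at 87.8 and 146 CPM, and the part of free RNA in these ratios was not tested.

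Lower at day 7 were Serpinb9 (530 and 248 CPM, log2 ratio -1.09, -1.59 to -0.58, and -1.48 without the barcodes with macrophage counts), the interferon gamma receptor gene Ifngr1 (906 and 456 CPM, -0.99, -1.36 to -0.61, and -1.37) and Rora (199 and 66.7 CPM, -1.58, -2.45 to -0.66, and -1.69). Ccl5 stood at 7048 and 5956 CPM, a log2 ratio of -0.24 (-0.37 to -0.12), and -0.60 (-0.73 to -0.48) without them, but 0.07 (-0.05 to 0.20) with median-of-ratios scaling, which moved the median of all genes to 0.36. Ccl2 had a log2 ratio of -10.32 through the 1 barcode named above. Without the barcodes with macrophage counts, day 2 held 1 count and day 7 none.

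**Figure D4:**
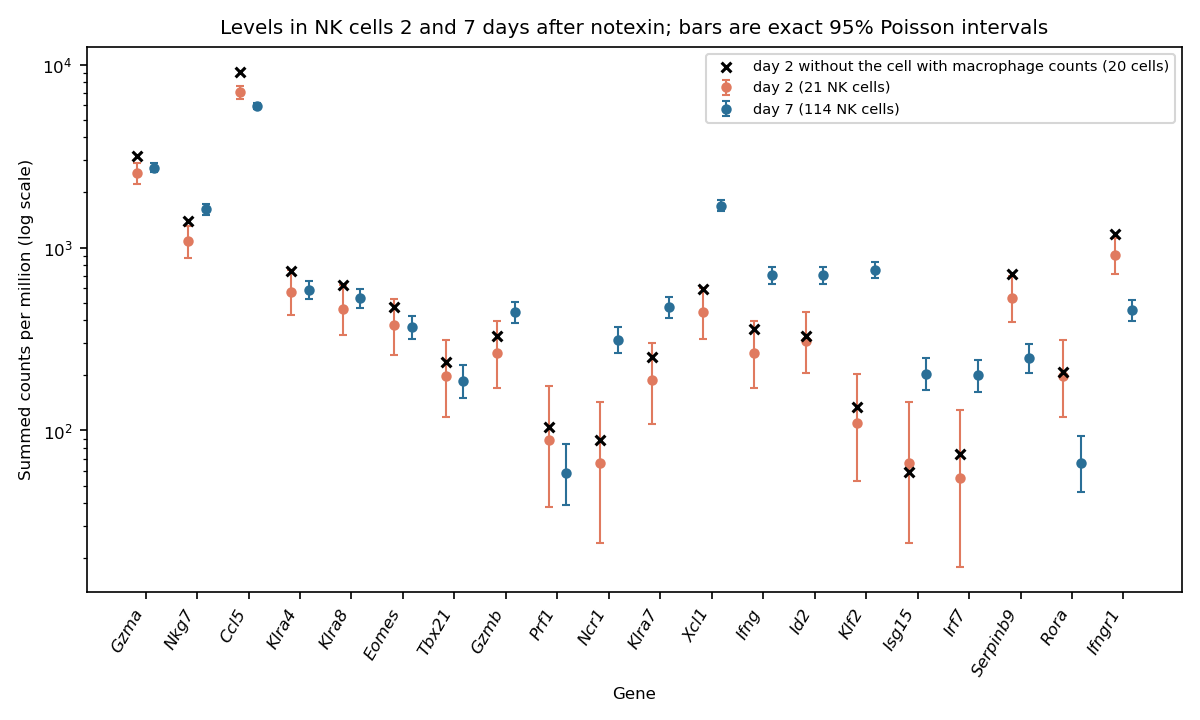
CPM of 20 genes in NK cells (y axis, log scale; genes on the x axis) at day 2 (21 cells, orange) and day 7 (114 cells, blue), with exact 95% Poisson intervals as bars and crosses for day 2 without the 1 barcode that held macrophage counts (20 cells). Intervals of Gzma, Klra4, Eomes and Tbx21 overlap between days, and those of Ncr1, Xcl1, Ifng and Klf2 do not.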

How the data were processed

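The authors aligned 10x Genomics 3′ version 3 reads to mm10 with Cell Ranger (3.1.0 in the submitters' processing notes, 3.0.1 in the file headers) and deposited whole-number counts of unique transcripts per gene and barcode, for barcodes called as cells and for all barcodes. The authors also deposited estimated counts from which SoupX had subtracted free RNA, used here as an alternative, and a table of cell types made after doublet removal, integration with other datasets and clustering. The methods name Harmony as the integration behind the cell types they analysed, but whether the deposited table holds those is not given in the sources used here. No further doublet step was run.

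The counts of NK and T cell barcodes were summed per library with Python 3.11.15, numpy 2.4.6, pandas 2.3.3 and scipy 1.17.1, and scaled to CPM (counts per 1000000). Ratios carry exact conditional binomial intervals, levels exact Poisson intervals and shares Clopper-Pearson intervals, all at 95%. The script was tested on simulated data. Named genes were those of 16 lists, with a ratio where NK or T cells held at least 10 counts, and the 12 highest and 12 lowest of the ranking, which needed 50 counts and 10% of cells and left out mitochondrial, ribosomal protein, haemoglobin and antigen receptor V and J genes. Counts below 3 were taken as 3 in the ranking. The members and lists were chosen with earlier results of these data known. Free RNA was read from barcodes with 1 to 100 counts (3053639 counts at day 2 and 4966167 at day 7). The 27998 genes were read in 4836 and 4889 filtered barcodes, holding 41123913 and 32356088 counts at day 2 and day 7, and 27645 gene identifiers matched the GRCm38 annotation that gave the coordinates. Promoters came from RefSeq. Alternatives changed the limits on cells, the counts, the scaling, the minimum of counts and the cells compared. With 1 library per time point no test was run. Values of some listed genes are not reported here.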

Additional observations from a re-analysis of the deposited data

Results flagged for a closer look

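The NK to T ratio pointed in opposite directions at the 2 days for 9 genes of the 16 lists, with intervals that excluded equality on both days. The difference between days was not tested, since there was 1 library per day. At day 2 the log2 ratio was -1.96 for Srgn, -3.52 for Ccl3, -2.81 for Ccl4, -1.84 for Klf2, -5.77 for Cma1, 2.68 for Itga4, 3.77 for Ly6c2 and 4.40 for Ccl2, and Gzmc had no count in NK cells and 33 in T cells, an upper limit of -1.47. At day 7 the values were 0.35, 2.87, 2.88, 0.55, 4.93, -0.41, -1.63 and -2.37 in that order, and 3.34 for Gzmc. The day 7 value of Klf2 turned to -0.03 by the mean over cells and -0.42 after thinning to 2000 counts. That of Srgn turned to -0.02 by the mean over cells and -0.08 without cells that held cell cycle counts. In NK cells of day 7, Gzmc held 18 counts and Ccl2 held 2. Cma1 held 9 there, under the minimum of 10 counts used elsewhere, and stood at 0.598 CPM in T cells.

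Of the 52 T cell barcodes of day 2, 17 held at least 3 counts of the basophil markers Mcpt8, Cpa3, Ms4a2, Fcer1a and Cd200r3, and no NK barcode did. Without those 17 barcodes the day 2 ratio was -0.35 (-0.76 to 0.04) for Srgn, 3.21 for Ccl3, 4.44 for Ccl4, -1.73 for Klf2, 2.38 for Itga4, 4.33 for Ly6c2 and 5.70 for Ccl2. The T cell counts of Cma1 went from 497 to 0 and those of Gzmc from 33 to 0. The 466 NK counts of Ccl2 at day 2 include 465 from 1 barcode with macrophage counts. Among macrophage markers outside those lists, C1qa, C1qb and C1qc reversed too, from 7.03, 7.19 and 3.93 at day 2 to -1.26, -2.38 and -2.61 at day 7, and without that barcode their 43, 48 and 15 NK counts of day 2 fell to 0, 2 and 1.

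Outside the cell type table, 2 of 1299 filtered barcodes of day 2 and 2 of 1473 of day 7 held at least 3 counts of Ncr1, Klrb1c and Gzma and no count of Cd3d, Cd3e or Cd3g. Of these, none at day 2 and 1 at day 7 met the limits on cells of the study.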

How the results depend on the processing

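No paired analysis was possible because there was 1 library per time point. Over 192 named genes and the alternatives that gave a value, 1549 NK to T values stayed within their intervals, 332 moved and 17 changed direction, and over 139 genes compared between days 779 stayed and 53 moved. A change of direction was counted for ratios of at least 2-fold whose interval excluded equality. Below 2-fold, 22 more NK to T values with such an interval changed sign, as did 3 between days (Ccl5, 0.07 by median-of-ratios scaling, Ube2c, -0.29 under the stricter limits, and Tmem176a, -0.67 without cells with macrophage counts). The 22 NK to T values were those of 12 genes, Hcst, Srgn, Id2, Klf2, H2afz, Cst7, Tcf7, Fyn, Irf7, Il18r1, Ccl5 and Itgb2. Where the interval included equality, 68 and 77 values changed sign. Alternatives with both classes at or under 3 counts gave no value. The cause of the changes was not tested, except that fewer cells or a lower minimum change the number of genes that enter. The NK share at day 7 was 8.20% of immune cells. The share of NK cells of day 7 with at least 3 counts of T cell markers was 0% under the stricter limits on cells, with SoupX values and after thinning, and so was the share at a minimum of 5 counts. After thinning, 3 of 101 held at least 1. Genes at least 2-fold higher and lower in NK cells numbered 133 (2.89%) and 569 (12.3%) of 4609 tested. They were 43 (2.92%) and 126 (8.56%) of 1472 after thinning, 1338 (9.09%) and 1607 (10.9%) of 14716 with no minimum, and 83 (2.97%) and 185 (6.62%) of 2796 without cells with cell cycle counts. With a minimum of 20 counts 243 of 5315 (4.57%) were higher. The lower genes numbered 320 of 3559 (8.99%) without cells with endothelial or macrophage counts and 171 of 1903 (8.99%) against Cd8 T cells, both chosen after seeing the data. Between days, listed genes higher at day 7 numbered 13 by the mean over cells, 40 by median-of-ratios scaling and 13 without cells with macrophage counts (also chosen after seeing the data), where 11.4%, 19.7% and 11.6% of all genes tested were higher. Those lower numbered 6 by median-of-ratios scaling and 19 without those cells, where 2.46% and 6.01% of all genes were lower. Ratios that changed direction after thinning were those of Itga1 (0.30), Havcr2 (0.56), Ccnb1 (0.30) and Pvrl2 (0.88, and 0.16 by the mean over cells). Without cells with cell cycle counts they were Itga1 (0.10), Ccna2 (0.61), Nusap1 (0.03) and Cxcl9 (0.29). Without cells with endothelial or macrophage counts they were Col4a2 (0.55), Itga1 (0.86) and Cxcl12 (1.13), and against Cd8 T cells Col4a2 (0.24), Itga1 (0.56), Tmem176a (1.73), Tmem176b (2.98) and Cxcl12 (1.24).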

Other observations

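The heat shock genes Hspa1a and Hspa1b were among the genes that differed most between the NK cells of the 2 days. Hspa1a stood at 276 CPM at day 2 and 7427 CPM at day 7, a log2 ratio of 4.75, and 4.39 without NK cells that held macrophage counts. Hspa1b stood at 254 and 5615 CPM, a log2 ratio of 4.47, and 4.29 without them. In T cells Hspa1a stood at 1565 and 4880 CPM, and in free RNA at 992 and 2685 CPM. The part of free RNA, dissociation and library in these values was not tested. Apoe (77.3 and 2161 CPM in NK cells) had a log2 ratio of 4.8, and 2.00 (74.3 and 297 CPM) without NK cells that held macrophage counts, and stood at 713 and 9534 CPM in free RNA.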
